A study of Mus musculus with 8 samples.

Results

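The probes described here are 71 overlapping oligonucleotides of an Agilent lncRNA array, out of 90752 probes, each 60 bases long. They were collected from their sequences alone: 2 probes were linked when 25 or more consecutive bases of one stood unchanged, same strand, in the other, and every probe connected in this way, directly or through other probes, to MOUSELNCRNA_11958 was a member. MOUSELNCRNA_11958 was selected on its set's processed signals: the set was proposed with its difference between dMCAO and sham arrays already known. The member values in that comparison are therefore a description, and they support no statement about stroke.

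The arrays compared cortex of male mice after distal middle cerebral artery occlusion (dMCAO), a surgical model of ischaemic stroke that closes a branch of the artery on the surface of the brain, with cortex of sham-operated male mice. Right peri-infarct cortex, the tissue bordering the infarct, came from 4 dMCAO mice, and the matching right cortex came from 4 sham mice. Total RNA was labelled with Cy3, and each mouse had 1 array; strain, age and the time between surgery and sampling are not given in the sources used here. Arrays are called dMCAO 1 to dMCAO 4 and sham 1 to sham 4 after the sample titles. All dMCAO arrays lay on 1 slide read in 1 scan and all sham arrays on another slide and scan, so the slide, the scan and the surgery cannot be told apart.

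Across the arrays 67.9% to 74.6% of 176026 non-control spots were well above background and 0 were saturated. The 75th percentile of the processed signal lay between 523 and 631 intensity units, and the negative control spots had medians of 2.69 to 3.66. With 4 arrays in a group, their number sets how precise any value below can be.

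The sequence that the members share is that of 5S ribosomal RNA (5S rRNA). 5S rRNA is a small RNA of the large ribosomal subunit. It is transcribed by RNA polymerase III from tandemly repeated genes with a promoter inside the transcribed sequence, through the factor TFIIIA, whereas the other ribosomal RNAs come from a precursor made by RNA polymerase I. Mammalian genomes also hold many diverged copies of the 5S gene scattered outside the repeats, and transcripts that run across such copies carry 5S-like sequence. The identification rests on general knowledge of the 5S sequence, since no sequence of a 5S gene was used here; the RefSeq gene table of GRCm38.p6 lists 52 genes with 5S rRNA names, 119 to 121 bases long, without their letters. No gene or position is given for any probe, so neither the transcript nor the genome site that each probe was designed from is known here.

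The members were laid over each other without gaps along 116 columns, counted from 1 at the 5′ end of the member that starts first. A majority sequence, the most frequent base at each column, was read over the 87 columns, 28 to 114, that at least 10 members covered. At columns 88, 100 and 101 that base was held by 42.1%, 45.5% and 40.5% of the covering members. The sequence is shown because the values below are ordered along it. Its capitals mark the 25-base run held by the most members, 32 of 71.
Majority sequence, columns 28 to 114: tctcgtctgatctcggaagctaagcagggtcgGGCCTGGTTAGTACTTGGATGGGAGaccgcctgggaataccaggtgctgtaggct
The shorter run TGGTTAGTACTT stood in 59 members, GGCCTGGTTAGTACTT in 52 and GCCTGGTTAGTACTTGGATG in 42. At least 90% of the covering members held the same base in 44 columns, and the longest unbroken stretch of such columns ran over 25 columns, from 60 to 84. The members thus agreed most around the middle of the layout and diverged at their outer ends.

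The members on which the description turns are printed 5′ to 3′, with the longest run each shares with the majority sequence in capitals. The first is the probe with the most links. The next are MOUSELNCRNA_6776, the most linked of the 6 members joined by shared runs of at least 50 bases, and the pair with the brightest spots.
MOUSELNCRNA_12036: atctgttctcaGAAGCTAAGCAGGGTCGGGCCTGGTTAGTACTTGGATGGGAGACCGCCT
MOUSELNCRNA_6776: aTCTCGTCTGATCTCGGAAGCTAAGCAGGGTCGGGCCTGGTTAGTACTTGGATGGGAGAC
MOUSELNCRNA_68831: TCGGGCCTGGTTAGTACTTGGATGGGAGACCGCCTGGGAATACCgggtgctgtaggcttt
MOUSELNCRNA_22645: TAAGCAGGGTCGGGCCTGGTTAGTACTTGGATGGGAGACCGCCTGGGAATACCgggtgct
MOUSELNCRNA_6776 matched the majority sequence at 59 of the 59 bases that lay over it.

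The 3 members with the largest difference between the groups all start near the 5′ end of the layout, at columns 16, 17 and 1. Their sequences are shown because they reach further 5′ than most members; under 10 members cover the columns before 28.
MOUSELNCRNA_1557: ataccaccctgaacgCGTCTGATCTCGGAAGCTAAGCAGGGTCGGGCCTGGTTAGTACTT
MOUSELNCRNA_72711: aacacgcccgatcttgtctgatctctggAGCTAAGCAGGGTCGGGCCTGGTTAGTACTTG
MOUSELNCRNA_24595: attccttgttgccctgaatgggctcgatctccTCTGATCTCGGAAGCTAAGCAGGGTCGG
The 3 members with the smallest difference and the pair with the dimmest spots follow, for comparison with the majority sequence. All of the first 3 start at column 42.
MOUSELNCRNA_17921: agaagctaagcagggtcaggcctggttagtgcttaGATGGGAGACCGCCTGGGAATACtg
MOUSELNCRNA_15340: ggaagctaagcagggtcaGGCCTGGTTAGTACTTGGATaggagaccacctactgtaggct
MOUSELNCRNA_28193: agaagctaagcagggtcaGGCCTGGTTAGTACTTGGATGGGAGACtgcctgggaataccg
MOUSELNCRNA_76642: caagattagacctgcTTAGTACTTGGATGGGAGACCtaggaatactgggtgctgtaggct
MOUSELNCRNA_27239: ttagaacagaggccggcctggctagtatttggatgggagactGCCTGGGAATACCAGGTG

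Of the 2485 pairs that 71 members can form, 821 shared a run of 25 or more bases. A member had 1 to 46 links, with a median of 28. The median member matched the majority sequence at 52 bases (range 32 to 59), had a longest unbroken match of 28 bases (13 to 59) and held 33 G or C bases (23 to 36). At 50 shared bases the set broke into 1 subgroup of 6 members, 1 pair and 63 members that stood alone. At 40 shared bases the largest subgroup had 17 members, and at 30 it had 41. Because they share so much sequence, 1 RNA species can bind many of these probes, and their values are not independent readings of separate transcripts.

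All 71 members were well above background on all 8 arrays, so none was lost to the filter on dim probes. Of these, 68 had 2 spots on the array and 3 had 1 spot. The SD between the spots of a member had a median of 0.03 on the log2 scale, against a median SD between arrays of 0.27 in the dMCAO group and 0.18 in the sham group.

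As a set, the members were brighter on every dMCAO array than on any sham array. The median member signal was 1905, 2411, 2241 and 2580 intensity units on dMCAO 1 to 4, and 1175, 1097, 916 and 1380 on sham 1 to 4. On the scaled log2 scale, where 0 is the 75th percentile of an array, the mean over the members was 1.47, 1.96, 1.64 and 1.98 on the dMCAO arrays (1.76 ± 0.25, SD, n = 4). It was 0.74, 0.71, 0.63 and 1.05 on the sham arrays (0.78 ± 0.18, SD, n = 4). The groups did not overlap, and the difference of 0.98 corresponds to 1.97-fold.

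The differences of single members lay close together, between 0.68 and 1.31 on the log2 scale, with quartiles of 0.94 and 1.02. Their SD was 0.10, while the differences of all 64086 tested probes ran from -2.69 to 6.86 with an SD of 0.32. In folds the members spanned 1.61 to 2.49, and 63 of 71 lay within 10% of the fold of the set. The standard error of a single member's difference was 0.11 to 0.28 (median 0.14); it reflects the spread between mice, which the members share.

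All 71 members passed an adjusted p of 0.05 in limma with the dMCAO group higher, against 6.26% of all tested probes called in that direction. At an adjusted p of 0.01 the count was 68, against 2.33%, and 23 members passed 0.05 with at least a 2-fold difference, against 1.09%. Each member also had its lowest dMCAO array above its highest sham array, which held for 10.2% of tested probes. Nothing is read from these counts, because the set was proposed for this difference.

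MOUSELNCRNA_11958 itself gave processed signals of 964, 1549, 1145 and 1586 on dMCAO 1 to 4. On sham 1 to 4 it gave 709, 689, 575 and 748. All dMCAO values were above all sham values, and the log2 difference was 0.87 ± 0.15 (SE), below the mean of the set. MOUSELNCRNA_12036, the most linked probe, read 3188, 4806, 3958 and 5077 in the dMCAO group. Its sham signals were 2171, 2042, 1665 and 2412, again without overlap, and its log2 difference was 0.97 ± 0.14 (SE). In both probes dMCAO 1 was the lowest dMCAO array and sham 4 the highest sham array.

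The near-complete matches to the majority sequence gave much the same difference. MOUSELNCRNA_6776 had signals of 4885, 6794, 6306 and 7190 in dMCAO and of 3215, 3007, 2384 and 3623 in sham, a log2 difference of 0.99. The 6 members of its subgroup spanned only 0.96 to 1.01. The brightest member, MOUSELNCRNA_68831, read 6897, 9942, 8056 and 10192 in dMCAO and 4553, 4450, 3463 and 4593 in sham, a difference of 0.98. MOUSELNCRNA_22645 read 5231, 7910, 6364 and 8054 in dMCAO and 3248, 3256, 2625 and 3799 in sham, a difference of 1.03. No group overlapped in these 3 probes.

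The dimmest members had differences on either side of those of the brightest in the main setting, but both lay below them with normexp background correction. MOUSELNCRNA_76642 read 190, 319, 223 and 309 in dMCAO and 127, 119, 94.6 and 132 in sham, a log2 difference of 1.06. MOUSELNCRNA_27239 read 216, 357, 270 and 368 in dMCAO and 152, 155, 135 and 182 in sham, a difference of 0.88. With normexp background correction these became 0.76 and 0.68, against 0.97 for MOUSELNCRNA_68831 and 0.99 for MOUSELNCRNA_22645. The groups of the dim pair did not overlap, although these signals were more than an order of magnitude below those of MOUSELNCRNA_68831. Signals of different probes depend on how each binds, so their order says nothing of the amount of RNA.

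Members with the smallest difference still had separate groups. MOUSELNCRNA_17921 read 747, 1128, 933 and 1152 in dMCAO and 607, 595, 491 and 665 in sham, a log2 difference of 0.68. MOUSELNCRNA_15340 read 1905, 2457, 2241 and 2580 in dMCAO and 1348, 1314, 1056 and 1547 in sham, a difference of 0.75. MOUSELNCRNA_28193 read 2468, 3663, 3090 and 3767 in dMCAO and 1835, 1791, 1504 and 2043 in sham, a difference of 0.79. In MOUSELNCRNA_17921 the gap between the lowest dMCAO and the highest sham array was 0.19 on the scaled log2 scale; the narrowest gap of any member was 0.07.

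Across the members the brightness followed the sequence while the difference between groups followed it much less. The mean scaled log2 signal correlated with the length of the longest run shared with the majority sequence (Pearson r = 0.71, Spearman rho = 0.80, n = 71 members), with the number of matching bases (r = 0.64, rho = 0.68) and with the number of G and C bases (r = 0.63, rho = 0.66). The log2 difference between groups had r = 0.13 (rho = 0.19) with the mean level, r = 0.18 (rho = 0.21) with G and C bases, and r = 0.00 (rho = 0.14) with matching bases. With the longest shared run it had r = 0.28 (rho = 0.37). Under another background correction the correlation of the difference with the level was 0.60. The points share their arrays and much of their sequence, so these are descriptions and carry no test.

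In steps of the longest shared run, 2 members with 11 to 15 bases had a median signal of 1151 and a median log2 difference of 0.89, and 13 members with 16 to 20 bases had a median signal of 792 and a median log2 difference of 0.90. The 29 members with 21 to 30 bases had 807 and 0.97. The 16 members with 31 to 45 bases had 3082 and 0.99, and the 11 with 46 to 60 bases had 3849 and 0.99. The median signal was thus higher above 30 bases, and the median difference ranged from 0.89 to 0.99.

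Within each group, the members also ranked the mice in nearly the same order. Sham 4 was the highest sham array in all 71 members, and sham 3 was the lowest in 63. Among the dMCAO arrays, dMCAO 1 was the lowest in 70 members, and dMCAO 4 was the highest in 47, dMCAO 2 in 21 and dMCAO 3 in 3. When the deviations of each array from its group mean were set against the mean of the other members, 65 members correlated with r above 0.9, with a median of 0.99. These deviations cover 8 arrays and are shared by probes with common sequence, so the agreement is no replication.

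The 3 members outside this order, with r between -0.25 and 0.18, were the 3 with the largest difference, and in all 3 dMCAO 3 was the highest dMCAO array. In MOUSELNCRNA_24595 dMCAO 1 also left the order, standing next to highest, and dMCAO 2 was lowest. MOUSELNCRNA_1557 read 4858, 5106, 10385 and 5437 on dMCAO 1 to 4 and 2490, 2353, 1776 and 3033 on sham 1 to 4. Its spots on dMCAO 3 differed by 0.09 on the log2 scale, so both were high. MOUSELNCRNA_72711 read 2136, 2308, 3768 and 2454 in dMCAO and 1175, 1057, 826 and 1338 in sham, with a gap of 0.07 between its spots on dMCAO 3. MOUSELNCRNA_24595, with 1 spot, read 654, 530, 1463 and 572 in dMCAO and 329, 311, 234 and 381 in sham. On the sham arrays all 3 kept the order of the rest, with sham 4 highest and sham 3 lowest.

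Without dMCAO 3 the differences of these 3 members came to those of the other members. They were 1.08 for MOUSELNCRNA_1557, 1.06 for MOUSELNCRNA_72711 and 0.89 for MOUSELNCRNA_24595, in place of 1.31, 1.21 and 1.19. The other 68 members had a median of 0.98 with dMCAO 3 and 1.03 without it. The largest differences of the set thus rest on a single array.

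The value of dMCAO 3 relative to the other 3 dMCAO arrays changed along the layout. Taken as the scaled log2 value of dMCAO 3 minus the mean of the others, it ran from -0.44 to 1.23 over the members, with a median of -0.21; all tested probes had a median of -0.02. Its median was 0.62 in the 5 members starting at columns 1 to 20, -0.14 in the 13 starting at columns 21 to 32, and -0.18 in the 14 at columns 33 to 44. It was -0.22 in the 22 members at columns 45 to 52 and -0.28 in the 17 at columns 53 to 60. The further 3′ a probe lay, the lower dMCAO 3 stood against the other dMCAO arrays.

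Across all members this quantity correlated with the first column at r = -0.68 (rho = -0.74, n = 71). Over the 66 members that start after column 20, which leaves out the high ones, r was -0.68 (rho = -0.71). It followed the mean level less closely (r = 0.09, rho = 0.29 over all members). The trend sets 1 mouse against the mean of the other dMCAO arrays, so a change in any of them enters it too. In MOUSELNCRNA_24595, at column 1, dMCAO 1 also stood above dMCAO 2 and dMCAO 4. The trend was noticed in the same data, so no test is attached to it, and its cause was not tested.

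The other 2 members that start at columns 1 to 20, MOUSELNCRNA_6868 and MOUSELNCRNA_49979, named after their values were seen, did not have dMCAO 3 as their highest array. Their sequences are printed so that their 5′ parts can be set against those of MOUSELNCRNA_1557 and MOUSELNCRNA_72711; capitals again mark the longest run shared with the majority sequence.
MOUSELNCRNA_6868: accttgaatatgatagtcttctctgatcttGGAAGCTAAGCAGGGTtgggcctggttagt
MOUSELNCRNA_49979: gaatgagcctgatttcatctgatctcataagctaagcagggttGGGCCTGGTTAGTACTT
MOUSELNCRNA_6868 read 733, 1115, 941 and 1223 in dMCAO and 498, 477, 403 and 610 in sham, a log2 difference of 0.95. MOUSELNCRNA_49979 read 809, 1105, 996 and 1179 in dMCAO and 510, 508, 443 and 650 in sham, a difference of 0.90. In both, dMCAO 1 was the lowest dMCAO array, dMCAO 4 the highest and sham 4 the highest sham array; the lowest sham array after scaling was sham 3 in MOUSELNCRNA_6868 and sham 1 in MOUSELNCRNA_49979.

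Probes just outside the linking rule gave a further view of the same sequence. The 32 members whose longest link was 25 to 30 bases had log2 differences of 0.68 to 1.19, with a median of 0.95. Outside the set, 69 probes had a longest run of 18 to 24 bases in common with a member, and 42 of them were bright enough to be tested. Of these, 39 were higher in dMCAO and 28 passed the adjusted p of 0.05 in limma in that direction, with 0 passing it downward. Over all tested probes 6.26% were called in that direction. Of the 63479 tested outside probes with 0 to 27 matches over the whole layout, 30721 were higher in dMCAO. Among them 3885 were called higher and 3409 lower. The median log2 difference of the 42 probes was 0.82. The lowest was -0.46 and the highest that of MOUSELNCRNA_47145, 2.84-fold, described further on. These probes resemble the members they were found by, so they are no independent sample.

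The median difference was similar from 24 down to 18 shared bases and lower at 16 to 17. Tested probes sharing 22 to 24 bases had a median log2 difference of 0.85 (n = 14), those sharing 20 to 21 had 0.79 (n = 12), and those sharing 18 to 19 had 0.77 (n = 16). At 16 to 17 shared bases the median was -0.07 (n = 15), with 3 probes called higher and 2 lower. Over all tested probes 6.26% were called higher and 11.6% in either direction. Many of these probes were dim: 26 of the 69 were well above background on no array.

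Counting matches to the majority sequence instead of runs gave a less even picture. Outside the set, 8 tested probes with 50 or more matching bases had a median of 0.92, and 7 were called higher. Another 13 with 45 to 49 had a median of 0.86, and 7 were called higher. The share called higher over all tested probes was 6.26%. Probes with 40 to 44 matches had a median of 0.08 (n = 18), with 6 called higher and 1 lower. Those with 36 to 39 had 0.50 (n = 11), with 6 called higher and 0 lower. Those with 32 to 35 had -0.06 (n = 20), with 3 called higher and 2 lower. Among members the median was 0.91 even at 40 to 44 matches (n = 9).

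The longest shared run outside the set was 24 bases, held by 5 probes. The rule for named probes took the 3 with the lowest probe numbers, which are printed; capitals mark the run shared with a member.
MOUSELNCRNA_8304: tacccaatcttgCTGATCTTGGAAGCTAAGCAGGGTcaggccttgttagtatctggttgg
MOUSELNCRNA_12564: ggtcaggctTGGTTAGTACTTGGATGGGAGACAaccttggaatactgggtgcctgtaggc
MOUSELNCRNA_52337: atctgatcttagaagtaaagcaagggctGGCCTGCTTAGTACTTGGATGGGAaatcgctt
MOUSELNCRNA_8304 read 258, 381, 312 and 413 in dMCAO and 161, 162, 134 and 207 in sham, a log2 difference of 0.98 without overlap of the groups. MOUSELNCRNA_12564 read 755, 1287, 918 and 1300 in dMCAO and 534, 517, 436 and 598 in sham, a difference of 0.95, also without overlap. MOUSELNCRNA_52337 was not well above background on any array, with a highest signal of 32.2, and was not tested. The other 2 were looked up after the rule was applied. MOUSELNCRNA_74031 read 540, 760, 668 and 816 in dMCAO and 349, 328, 267 and 407 in sham, a difference of 0.99. MOUSELNCRNA_79239 read 103, 124, 114 and 132 in dMCAO and 91.6, 107, 94.9 and 114 in sham; its groups overlapped, and its difference of 0.16 was not called, although it was well above background on all 8 arrays. At the same length of shared run, 3 probes thus differed about as much as the set, 1 differed little and 1 was not above background.

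In some outside probes placed at or before column 20 the value of dMCAO 3 lay further above the other arrays than in any member. The 3 printed here were picked after their values were seen, for that reason. Capitals mark the longest run shared with a member.
MOUSELNCRNA_11525: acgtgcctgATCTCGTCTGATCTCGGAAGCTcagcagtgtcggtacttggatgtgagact
MOUSELNCRNA_47145: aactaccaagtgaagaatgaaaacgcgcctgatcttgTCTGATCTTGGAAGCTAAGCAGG
MOUSELNCRNA_50568: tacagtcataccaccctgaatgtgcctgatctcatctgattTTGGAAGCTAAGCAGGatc
MOUSELNCRNA_11525, with 1 spot, read 4741, 2712, 12703 and 2780 in dMCAO and 1882, 1598, 1118 and 2074 in sham. MOUSELNCRNA_47145, with 2 spots that differed by 0.02 on dMCAO 3, read 1460, 738, 4173 and 784 in dMCAO and 515, 453, 329 and 610 in sham. MOUSELNCRNA_50568, with 1 spot, read 1517, 1116, 3560 and 1143 in dMCAO and 763, 766, 584 and 904 in sham.
In all 3 probes dMCAO 3 was the highest array and dMCAO 1 the next, whereas dMCAO 1 was the lowest in 70 of 71 members. Their group means were 2.74-fold, 2.84-fold and 2.09-fold higher in dMCAO, in the order printed, and none passed the adjusted p of 0.05 in limma. Without dMCAO 3 the folds were 1.99, 1.99 and 1.64.

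Not every probe placed there behaved in this way. Among outside probes sharing 18 to 24 bases, which leaves out MOUSELNCRNA_50568 with 16, 10 tested ones were placed at or before column 20. In 4 of them dMCAO 3 was the highest dMCAO array, and their value of dMCAO 3 minus the other dMCAO arrays had a median of 0.08 (range -0.16 to 2.04). Of the 32 tested probes placed after column 20, dMCAO 3 was highest in 1, and the median was -0.21 (range -0.41 to 0.10). The difference between the placements has no test, since the probes share sequence and the values set 1 mouse against the others of its group.

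No probe of the array could serve as a reading of the opposite strand. Of 90752 probes, 0 shared 25 or more bases with the reverse complement of a member, and 0 shared 16 or more. The members all carry the strand printed above, and whether the opposite strand differed between the groups was not measured.

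The narrow spread among the members was not particular to them. Of the 22 connected sets on the array with at least 20 tested members, the other 21 had SDs of their differences of 0.02 to 0.18, and 15 had a smaller SD than the 0.10 of the 5S-like set. The mean differences of those 21 sets ran from -0.25 to 0.47, below the 0.98 that this set was proposed for. The highest was that of the set holding MOUSELNCRNA_827, where all 22 tested probes were higher in dMCAO. Of those 22, 21 were called higher, against 6.26% of all tested probes. The median correlation of a member's array deviations with the rest of its set was 0.49 to 0.99 in the other 21 sets.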

How the data were processed

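Cortical total RNA of 8 mice, 4 per group, had been hybridised to 8 single-colour arrays. The deposited scanner files give a linear intensity for each spot, from which background had been subtracted and which had no scaling between arrays. Per the file headers, the software was Feature Extraction 12.0.3.1, while version 9.1 stands in the submitters' processing notes. The authors also deposited a table in log2 units, with a normalization not given in the sources used here. Its columns correlated with the scanner values at r of about 0.9997 to 0.9999. Each had a median of 6.44, so the columns had a common centre, while the steps that gave it remain unknown. The labels' treatment and extraction texts describe irradiated human blood and were not used.

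After removal of control and outlier spots, processed signals were converted to log2, each array's 75th percentile was subtracted and spots of a probe were averaged. A probe entered the test if the scanner software marked its spots as well above background on 4 or more of 8 arrays (64086 probes, 70.6%). The dMCAO and sham arrays were compared by limma 3.58.1, R 4.3.3 (lmFit, eBayes), with Benjamini-Hochberg adjustment over all tested probes. The p-values measure the spread between these samples, which the labels give as separate mice. Sequences were compared in Python 3.11.15 with pandas 2.3.3, numpy 2.4.6 and scipy 1.17.1; the fit and the linking were checked on simulated data. Sequences are those of the scanner files; that of the starting probe is not reported here.

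The members and lists were chosen with earlier results of these data known. Named probes were the starting probe, the most linked member, the 3 members with the largest and the 3 with the smallest difference, the 2 brightest and 2 dimmest, the most linked member of each subgroup of 5 or more, and the 3 outside probes with the longest shared run; others were chosen after their values were seen and are said to be. Alternatives were the background correction, the scaling, the filter, the empirical Bayes options, the value table, the threshold, the linking run, and leaving out each array. Same-numbered arrays of the 2 groups did not deviate together (r of -0.02 to 0.04 over probes; the closest array had the same number in 1 of 4 cases), so they were not treated as pairs. Cell type markers could not be read, as no gene is given for any probe.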

Additional observations from a re-analysis of the deposited data

Results flagged for a closer look

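Dixon's ratio for 1 array far from the other 3 was applied to each group of 4 arrays for 16 probes named by rule and for the mean of the set, 34 groups in all. The gap divided by the range passed Dixon's 95% critical value in 5 groups. Chance would give about 1.7 in independent groups. These probes share sequence and arrays, and some were named for values that an outlying array raises, so nothing is read from the count. Among the dMCAO arrays, dMCAO 3 stood apart on the high side in MOUSELNCRNA_1557 (0.948) and in MOUSELNCRNA_72711 (0.871). Both start at columns 1 to 20 of the layout and were named for their large difference. MOUSELNCRNA_24595, which also starts there, did not pass (0.728). Among the sham arrays, sham 4 stood apart on the high side in MOUSELNCRNA_28193 (0.831), in MOUSELNCRNA_27239 (0.835) and in MOUSELNCRNA_8304 (0.879), a probe outside the set. Over all 71 members the value passed in 2 dMCAO groups and in 17 sham groups. Members share sequence and arrays, so these are not separate events. No share over all tested probes is at hand for this ratio, so nothing is read from these counts either.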

How the results depend on the processing

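All 71 members passed the threshold in limma, and 69 to 71 did under normexp background, quantile and median scaling, either filter, trended and robust empirical Bayes, array weights, the deposited value table and each left-out array. The count was 68 at an adjusted p of 0.01 and 23 with a 2-fold minimum. With the replicate number as a block, 70 members passed and the mean difference of the set stayed 0.98. That mean was 0.93 to 0.97 under normexp, quantile, median scaling and the value table, and 0.91 to 1.08 with 1 array left out. Linking at 20 bases gave 125 members (mean difference 0.87, 105 tested), and at 30 bases MOUSELNCRNA_11958 stood as 1 member alone. The correlation of the difference with the level rose from 0.13 to 0.60 under normexp with an offset of 50, and the cause was not tested. Without the members starting at columns 1 to 20, a choice made after seeing the data, the mean was 0.97 and the SD of the differences 0.08, and the largest subgroup at 30 bases gave 0.99. Of 255 alternative values for 15 named probes, 250 kept their direction and side of the threshold. The other 5 belonged to MOUSELNCRNA_24595, whose adjusted p in limma was 0.026 and became 0.051 to 0.072 with no filter, with the block, or without dMCAO 1, sham 2 or sham 3. No opposite-strand probe existed to recompute, and slide as a block was not run because each slide held 1 group.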
